A study of Mus musculus with 12 samples.

Results

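Integrins are the receptors by which cells hold on to the extracellular matrix, each a pair of 1 alpha and 1 beta chain, and laminins are the trimers of an alpha, a beta and a gamma chain that build basement membranes and are bound by a subset of integrins. The mouse genome annotation (GENCODE M21, GRCm38) holds 37 protein-coding genes whose symbols name an integrin alpha chain, an integrin beta chain or a laminin chain, of 22028 protein-coding genes in all. The rule took every gene with such a symbol, and no threshold on a measured value entered it. Accessible sites were the deposited peaks that overlapped a gene body extended by 5 kb on each side, called the gene window below. The peak set built from the BGI samples held 233 such peaks of 91354, in 36 of the 37 windows, and the set built from the Illumina samples held 231 of 87027. No peak of either set lay in the window of Itgax.

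Open chromatin was profiled with Omni-ATAC-seq, which relies on the Tn5 transposase to cut accessible DNA and tag the ends for sequencing. The cells were embryonic fibroblasts of the mouse (MEFs), a Thy1+ sort, and embryonic stem cells of the mouse (mESCs), a Thy1-/Ssea1+/Epcam+ sort, both of a C57/Bl6 background and with no treatment named. There were 3 libraries of each cell type, and each of the 6 libraries was read by 2 instruments, the DNBSEQ-G400 of BGI and the HiSeqX10 of Illumina, giving 12 samples in 4 groups. The platforms therefore read the same DNA libraries, so a result seen on both is a repeated reading, not a repeated experiment.

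Embryonic stem cells are pluripotent cells that grow well on laminin, whereas fibroblasts are spread, contractile cells that attach to fibronectin, vitronectin and collagen through focal adhesions. The integrins fall into groups by what they bind. The Itga3, Itga6 and Itga7 chains form laminin receptors. The Itga5, Itga8, Itgav and Itga2b chains form receptors for ligands with the RGD tripeptide, such as fibronectin and vitronectin. The Itga1, Itga2, Itga10 and Itga11 chains bind collagens, Itga4 and Itga9 form a pair of related chains, and Itgad, Itgae, Itgal, Itgam and Itgax belong to leukocytes. A peak near a gene shows open chromatin and does not measure the gene's RNA.

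The samples held 15860985 to 21662775 reads in the BGI peak set and 15996202 to 21441767 in the Illumina set, and the median peak of these genes held 126 to 170 reads per sample. Windows of the cell type markers separated as the labels name them. All 7 mESC marker windows were higher in mESCs and all 7 MEF marker windows lower, on both platforms. Marker windows of other cell types did not sum to 0 in either cell type. The leukocyte list (Ptprc, Spi1, Cd68, Cd48, Laptm5) summed to 118 to 130 CPM (reads per 1000000 reads in peaks) in the MEF samples and 196 to 200 CPM in the mESC samples on BGI, and the epithelial list (Krt5, Krt14, Trp63, Grhl2) to 40.8 to 45.3 and 118 to 136 CPM. Of the other lists, the endothelial windows summed to 86.7 to 98.8 CPM in MEFs and 138 to 150 CPM in mESCs, and the primitive endoderm windows to 188 to 204 and 180 to 197 CPM. Members of the same list moved apart on BGI. Krt5 (-0.89), Cdh5 (-1.05), Dab2 (-2.26) and Gata6 (-0.76) were lower in mESCs, while Grhl2 (2.16), Krt14 (1.83), Pecam1 (0.81), Tek (0.61), Sox17 (2.38) and Gata4 (0.69) were higher, and Trp63 (0.03) was not called. The sort itself used Thy1 and Epcam, which are on the MEF and mESC lists. The skeletal muscle list had peaks at Myod1 alone, with Myog and Myf5 holding none, with 5.54 to 6.87 CPM in MEFs and 14.7 to 16.8 CPM in mESCs. These sums take every peak in a marker window, including any at starts of other genes, so they do not measure a share of such cells. In the leukocyte list on BGI, Cd68 held the most, with 57.3 to 68.8 CPM in MEFs and 116 to 121 CPM in mESCs. Ptprc went the other way, with 5.37 to 8.61 CPM in MEFs and 0.567 to 1.99 CPM in mESCs. The part of cells of other types in the results below was not tested.

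The sites that differed most between the cell types lay outside the promoters, mostly in introns, and the sequences of 10 of them, 5 in each direction, are printed because their values are given gene by gene later. They were picked, with their values known and not strictly by size, from the 20 distal peaks named by rule, 10 in each direction, which lie over 1 kb from any protein-coding start, hold at least 5 CPM in the higher cell type and were called the same way on both platforms. Each run is the central 201 bases of a peak, on the plus strand of GRCm38, in lower case, with capitals where a short motif matched on either strand. The motifs searched were AP-1 (TGACTCA), TEAD (ACATTCC), RUNX (TGTGGTT), the octamer (ATGCAAAT), ESRRB (TCAAGGTCA) and KLF (GGGTGTGG). The peaks higher in mESCs were an intronic site of Itga6, an intronic site of Itgb5, an intronic site of Lama5, an intronic site of Itgb3 and an exonic site of Lamc1.
Itga6, chr2:71751449-71751649: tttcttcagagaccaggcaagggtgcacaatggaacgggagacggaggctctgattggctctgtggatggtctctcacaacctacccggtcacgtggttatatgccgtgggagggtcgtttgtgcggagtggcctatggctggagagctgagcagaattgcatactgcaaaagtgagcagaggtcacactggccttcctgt
Itgb5, chr16:33844147-33844347: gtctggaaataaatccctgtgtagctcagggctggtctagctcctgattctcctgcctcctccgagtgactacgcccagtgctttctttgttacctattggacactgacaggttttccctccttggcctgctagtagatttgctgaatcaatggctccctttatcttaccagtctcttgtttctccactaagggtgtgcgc
Lama5, chr2:180220229-180220429: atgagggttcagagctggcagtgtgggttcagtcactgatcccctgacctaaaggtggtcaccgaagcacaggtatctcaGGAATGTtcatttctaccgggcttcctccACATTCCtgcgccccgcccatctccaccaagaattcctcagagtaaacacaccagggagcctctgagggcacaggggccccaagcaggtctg
Itgb3, chr11:104648660-104648860: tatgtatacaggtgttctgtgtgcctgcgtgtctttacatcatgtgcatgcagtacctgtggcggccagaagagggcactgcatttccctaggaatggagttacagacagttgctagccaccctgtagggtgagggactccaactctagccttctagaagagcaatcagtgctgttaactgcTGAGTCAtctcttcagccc
Lamc1, chr1:153227193-153227393: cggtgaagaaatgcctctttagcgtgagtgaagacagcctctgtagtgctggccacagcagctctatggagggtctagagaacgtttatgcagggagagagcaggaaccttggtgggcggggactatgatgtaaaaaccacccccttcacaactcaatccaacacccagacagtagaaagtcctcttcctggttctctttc

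The peaks lower in mESCs, and so higher in MEFs, were intronic sites of Itgb5, Lama2 and Itgb1 and exonic sites of Itgb3 and Itga8.
Itgb5, chr16:33889069-33889269: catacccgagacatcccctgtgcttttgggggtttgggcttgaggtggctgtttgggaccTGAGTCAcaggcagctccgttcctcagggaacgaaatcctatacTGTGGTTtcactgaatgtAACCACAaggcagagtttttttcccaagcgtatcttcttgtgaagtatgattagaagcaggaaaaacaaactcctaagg
Lama2, chr10:27063769-27063969: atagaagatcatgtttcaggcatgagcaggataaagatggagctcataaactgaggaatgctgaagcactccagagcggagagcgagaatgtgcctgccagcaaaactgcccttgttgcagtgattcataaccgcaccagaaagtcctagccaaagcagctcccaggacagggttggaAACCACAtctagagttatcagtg
Itgb1, chr8:128704480-128704680: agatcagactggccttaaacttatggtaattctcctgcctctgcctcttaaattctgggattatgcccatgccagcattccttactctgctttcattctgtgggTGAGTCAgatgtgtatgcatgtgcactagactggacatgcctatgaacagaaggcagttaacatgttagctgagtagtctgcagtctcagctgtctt
Itgb3, chr11:104640983-104641183: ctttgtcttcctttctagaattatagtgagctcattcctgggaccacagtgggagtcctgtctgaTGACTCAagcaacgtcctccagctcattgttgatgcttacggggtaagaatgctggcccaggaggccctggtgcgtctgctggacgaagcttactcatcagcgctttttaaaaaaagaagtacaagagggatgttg
Itga8, chr2:12189144-12189344: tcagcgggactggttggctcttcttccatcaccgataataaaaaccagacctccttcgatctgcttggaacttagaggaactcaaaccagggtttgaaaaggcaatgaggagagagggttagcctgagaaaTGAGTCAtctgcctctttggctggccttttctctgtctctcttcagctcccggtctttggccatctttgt

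In these central stretches the capitals mark an AP-1 match in Itgb1, Itga8, both Itgb3 sites and the MEF site of Itgb5, RUNX matches in the MEF site of Itgb5 and in Lama2, and a pair of TEAD matches on opposite strands in Lama5. The Itga6, Lamc1 and mESC Itgb5 stretches held none of these letters. Over the whole 502-base peaks, the AP-1 letters lay in 5 of the 10 most changed distal peaks lower in mESCs and in 1 of the 10 most changed distal peaks higher in mESCs. Among all distal peaks of these genes that were lower by 2-fold or more, 23 of 61 (37.7%) held it, and among those higher, 7 of 46 (15.2%). The shares among all such distal peaks of the genome were 38.3% and 15.5%, so the AP-1 share was close to that of any peaks of the same direction. The KLF letters lay in 6 of 46 (13.0%) and 1 of 61 (1.64%), beside 10.4% and 4.50% genome-wide, and the ESRRB letters in 2 of 46 (4.35%) and 0 of 61, beside 3.08% and 0.671%. For RUNX the shares were 10.9% and 13.1%, beside 10.3% and 16.6%, and for TEAD 15.2% and 16.4%, beside 10.4% and 19.4%. The octamer lay in 1 of 46 (2.17%) and 3 of 61 (4.92%), beside 5.59% and 2.56%. A match is a description of the letters and was not taken as a bound site.

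To ask how the accessibility of these genes differed between the cell types, the reads of the 3 mESC and the 3 MEF samples were compared at every peak of the set by edgeR's quasi-likelihood test. A peak was called where the Benjamini-Hochberg adjusted p over all peaks was under 0.05. On BGI, 87 of the 233 peaks of these genes were higher in mESCs (37.3%) and 107 lower (45.9%), where 40.9% and 43.2% of all peaks were called in these directions. The other 39 did not pass. With a log2 fold change of at least 1 as well, 63 were higher (27.0%) and 80 lower (34.3%), beside 33.0% and 30.1% of all peaks. On Illumina 93 of 231 were higher and 97 lower, beside 42.1% and 42.4% of all peaks, and with the added fold threshold 68 and 67, beside 33.6% and 28.2%. The peaks of these genes had a median log2 fold change of -0.18 on BGI, beside -0.08 over all peaks, and of -0.11 on Illumina, beside -0.03. As a group, the peaks of these genes were called about as often as peaks elsewhere.

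**Figure D1:**
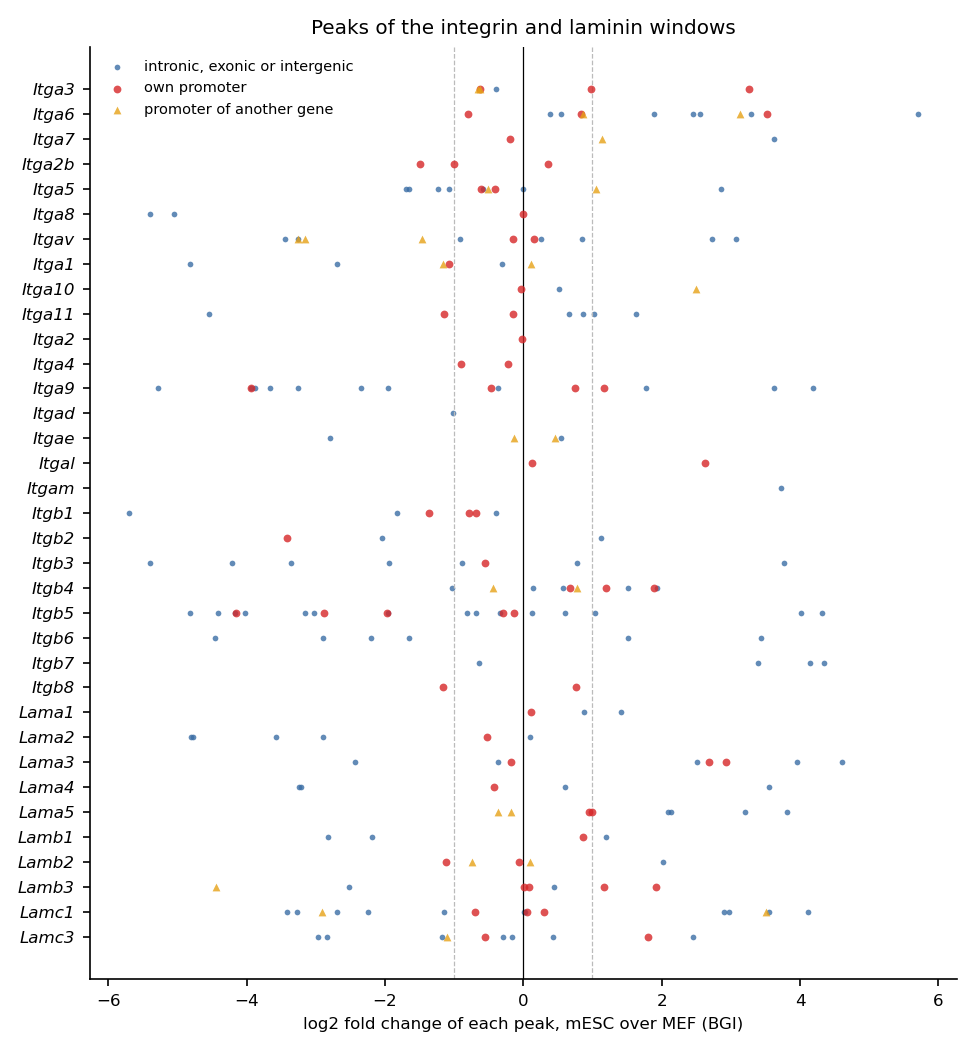
Each point is 1 of 223 peaks, placed by its log2 fold change of mESC over MEF on BGI (x axis) in the row of its gene, with red for the gene's own promoters, yellow triangles for promoters of other genes in the window and blue for all other sites. Dashed lines mark a log2 fold change of 1 in each direction. The blue points reach from -5.70 (Itgb1) to 5.70 (Itga6), and 16 of the 35 genes drawn hold changes of 2-fold or more in both directions.

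The genes' own promoters, meaning peaks within 1 kb of an annotated start of the same gene, changed less than the other sites. Of 65 own promoter peaks on BGI, 12 were higher and 12 lower by 2-fold or more (18.5% each, beside 19.4% and 14.7% of all peaks at starts), and their median absolute log2 fold change was 0.76. Of the 168 other peaks, 51 were higher (30.4%) and 68 lower (40.5%) by 2-fold or more, with a median absolute log2 fold change of 2.03. Without the peaks at starts of other genes, 46 of 143 were higher (32.2%) and 61 lower (42.7%) by 2-fold or more, with a median of 2.24, beside 39.5% and 37.5% of all peaks away from starts. The same held for peaks at large, with a median of 0.61 over 29808 peaks at starts of any gene and 2.57 over 61546 elsewhere. Of the 168 other peaks, 25 lay at starts of other genes, such as Pdk2 at the end of Itga3, Adrm1 beside Lama5, Pelo inside Itga1 and Hsd11b1 inside the long Lamb3 annotation. Those peaks belong to the windows by position only.

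For each gene, the own promoter peak with the most reads at a start of a protein-coding transcript was taken as its lead promoter, which 30 genes had. Of these, 7 were higher in mESCs, 11 lower and 12 not called, and 2 were higher and 4 lower by 2-fold or more (6.67% and 13.3%). Of 14867 lead promoters taken in the same way over all protein-coding genes, 22.0% were higher and 43.9% lower, and 9.43% and 7.64% by 2-fold or more. The median GC content of the 30 was 62.4%, against 51.0% for all peaks of the set. Of the 24 genes whose lead promoter changed by less than 2-fold or was not called, 20 (83.3%) held a peak elsewhere in the window, outside their own promoters, that changed by 2-fold or more. Over all genes with such a lead promoter the share was 63.3%, with a median of 2 other peaks per window, against 4.5 in these 24. The genes Itga2b, Itgad, Itgae, Itgam, Itgax, Itgb6 and Itgb7 had no such promoter peak, and the lead promoters of Itga6, Itgal, Itgb5 and Lamb3 were among those that lay over 10 kb downstream of the outermost annotated start.

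When all reads of a window were summed, 10 of 36 windows were higher in mESCs and 19 lower on BGI, where 35.4% and 40.4% of 17183 windows of all protein-coding genes were called in these directions. On Illumina 11 were higher and 18 lower, beside 35.1% and 40.7%. On both platforms 27 windows were called with the same sign, and 0 with opposite signs. The largest log2 fold changes on BGI were 3.74 ± 0.30 (SE) for Itgam, 1.94 ± 0.07 for Itga6 and 1.24 ± 0.09 for Itgb7 among those higher, and -2.18 ± 0.10 for Lama2, -1.33 ± 0.13 for Itgb2, and -1.04 for Itga8, Itgb3 and Itgb6 among those lower. Scaling to the fixed sequencing depths in place of TMM shifted the median log2 fold change of all windows from -0.05 to 0.09 and of all peaks from -0.08 to 0.06 on BGI, and with it the split of these windows from 10 higher and 19 lower to 13 and 16.

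**Figure D2:**
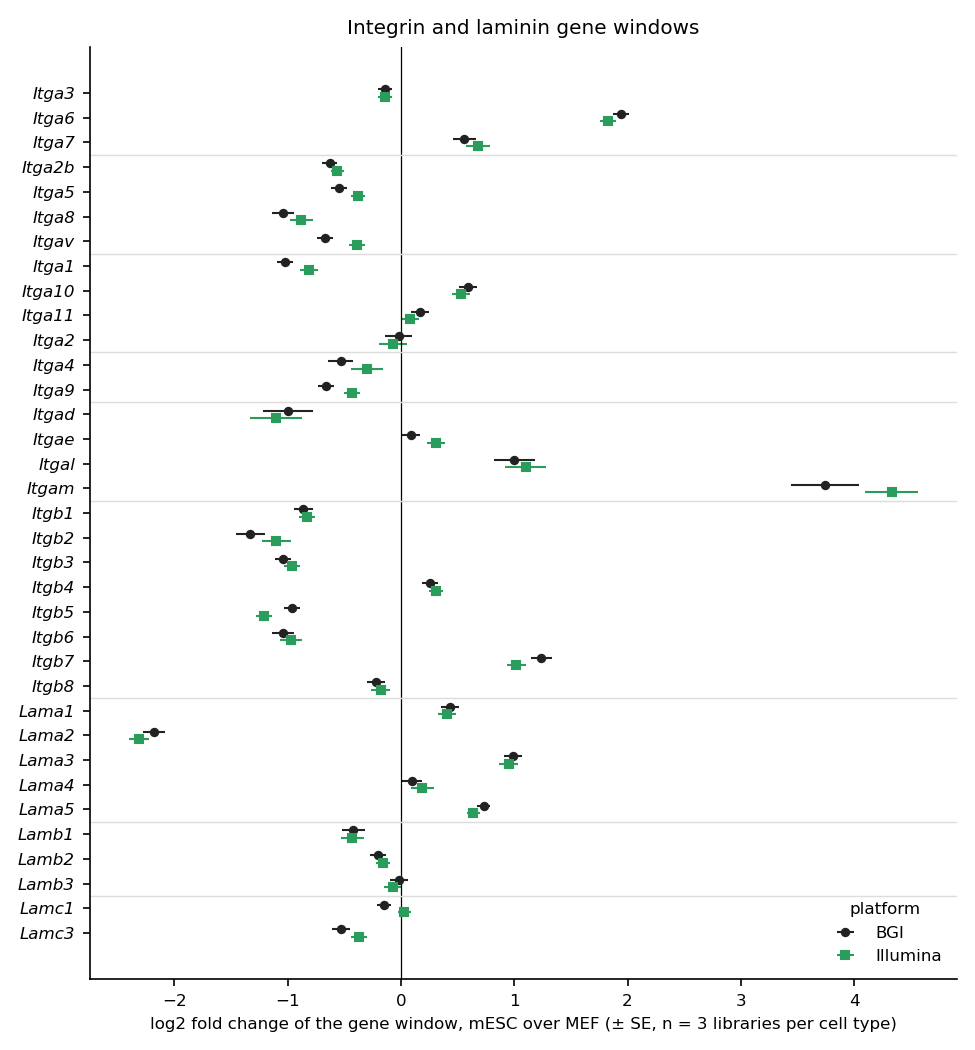
The x axis gives the log2 fold change of mESC over MEF for the summed reads of 35 gene windows, with bars of 1 SE from 3 libraries per cell type; black circles are BGI and green squares Illumina, and grey lines part the groups of chains. Itga6 (1.94 on BGI) stands apart from the other laminin-binding alpha chains, and Lama2 (-2.18) from the other laminin alpha chains.

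Of 21 peaks of the laminin-binding alpha chains, 14 were higher in mESCs (66.7%) and 5 lower (23.8%), beside 40.9% and 43.2% of all peaks, and 10 of the 14 lay in the Itga6 window. Its chain pairs with Itgb1 or Itgb4 and is a surface marker of stem and basal epithelial cells. The window (chromosome 2, 71745616 to 71858416, plus strand) summed to 47.7, 45.2 and 50.6 CPM in the MEF samples and to 193, 190 and 195 CPM in the mESC samples on BGI, and the groups did not overlap. Of its 12 peaks, 10 were higher in mESCs, 1 lower and 1 not called, and 7 were higher by 2-fold or more. The strongest, whose centre is printed above, lay in an intron 5.93 kb downstream of the outermost start and held 0.600, 0.944 and 0.996 CPM in MEFs and 43.3, 46.7 and 48.4 CPM in mESCs. That is a log2 fold change of 5.70 ± 0.16 (adjusted p = 5.43e-14), and on Illumina the overlapping peak gave 5.51 ± 0.16. No MEF sample reached 1 CPM there, and in each mESC sample it held more reads than any other peak of the window.

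The outermost Itga6 start belongs to a transcript annotated as non-coding (a processed transcript), so this site lies upstream of the protein-coding start. A peak 0.318 kb upstream of the outermost start held 2.38 ± 0.662 CPM in MEFs (SD, n = 3) and 28.4 ± 3.81 CPM in mESCs, a log2 fold change of 3.52. The GC-rich lead promoter at the protein-coding start (74.7% GC), 41.3 kb from the outermost start, was open in both cell types. It held 9.14, 9.74 and 9.46 CPM in MEFs and 19.3, 18.8 and 14.8 CPM in mESCs, a log2 fold change of 0.84 ± 0.15 on BGI and 0.54 ± 0.11 on Illumina. Downstream of it, the intron held a peak with 4.65 ± 1.41 CPM in MEFs and 27.1 ± 2.33 CPM in mESCs. The one lower peak lay 92.4 kb in, with 6.22 and 3.74 CPM.

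Itga3, which also pairs with Itgb1, differed from Itga6. Its lead promoter was higher in mESCs, with 11.5 ± 1.93 CPM in MEFs and 23.8 ± 1.93 CPM in mESCs (log2 fold change 0.98 ± 0.13), and a peak at an internal start 19.8 kb in rose from 1.57 ± 0.487 to 15.7 ± 3.46 CPM (3.26 ± 0.24). The promoter peaks of the neighbouring Pdk2 were lower, and the window as a whole gave -0.14 (adjusted p = 0.0561) on BGI and -0.14 (adjusted p = 0.0435) on Illumina, a call lost under the fixed depths (-0.02, adjusted p = 0.859). Itga7, the muscle laminin receptor chain, had a promoter that was not called (log2 fold change -0.19) and an intronic peak that went from 0.669 ± 0.220 CPM in MEFs to 8.72 ± 0.204 CPM in mESCs, a log2 fold change of 3.63 ± 0.28.

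All 4 windows of the RGD-binding alpha chains were lower in mESCs, on both platforms and under each scaling tried, where 40.4% of all windows on BGI were lower. Without promoter peaks, however, the Itgav window was lower on BGI (-0.23, adjusted p = 0.0376) and higher on Illumina (0.44, adjusted p = 0.00279). Of their 29 peaks on BGI, 18 were lower (62.1%), 6 higher (20.7%) and 5 not called, beside 43.2% and 40.9% of all peaks. On Illumina 16 of 32 were lower (50%) and 8 higher (25%), beside 42.4% and 42.1%, and under the fixed depths on BGI 15 of the 29 were lower. Itgav, the common partner of Itgb1, Itgb3, Itgb5, Itgb6 and Itgb8, had a lead promoter with 25.5, 25.4 and 23.0 CPM in MEFs and 28.6, 32.4 and 25 CPM in mESCs, which overlapped and was not called (log2 fold change 0.15 ± 0.12), though it passed as higher under the fixed depths (0.30, adjusted p = 0.0403). Its other peaks differed in both directions. A peak 4.16 kb in fell from 13.8 ± 2.20 CPM in MEFs to 1.52 ± 0.592 CPM in mESCs (-3.25 ± 0.25), and an exonic peak 24.2 kb in went the other way, from 0.840 to 7.42 CPM (log2 fold change 3.07).

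Itga8, whose chain binds nephronectin, showed a like contrast. Its promoter held 21.0, 21.0 and 19.8 CPM in MEFs and 21.9, 22.4 and 19.8 CPM in mESCs, a log2 fold change of -0.01 ± 0.11. The exonic peak printed above, 113 kb downstream, held 8.86, 7.31 and 14.3 CPM in MEFs and 0.504, 0.118 and 0.124 CPM in mESCs, and an intronic peak 88.7 kb downstream held 12.5 ± 2.70 and 0.388 ± 0.218 CPM. Their log2 fold changes were -5.39 ± 0.42 and -5.05 ± 0.32, and neither was open in any mESC sample beyond 0.621 CPM. Only 3 peaks lay in this window, so the fall of the whole window (-1.04 ± 0.10) came from these distal sites.

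Itga5, the fibronectin receptor chain, was lower at its promoter, with 20.6 ± 2.39 CPM in MEFs and 16.2 ± 1.18 CPM in mESCs (log2 fold change -0.41, adjusted p = 0.00568). That call was lost under the fixed depths (adjusted p = 0.0668 on BGI and 0.0888 on Illumina) and, on Illumina, without mESC library 1 (adjusted p = 0.0534). Itga5 had 11 peaks, of which an exonic one 7.95 kb in fell from 30 to 10.1 CPM (log2 fold change -1.65) and an intronic one 2.76 kb in rose from 1.17 to 8.90 CPM (2.86). Itga2b, the platelet chain, had peaks at starts of its processed transcripts only, 2 of them lower (log2 fold changes -1.50 and -1.0) and 1 higher (0.35).

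The collagen-binding chains did not move together. Of the 6 Itga1 peaks 4 were lower and 2 not called. It had a promoter at 23.3 ± 1.60 CPM in MEFs and 11.6 ± 1.47 CPM in mESCs (-1.07 ± 0.13) and an intronic peak at 7.92 ± 0.157 and 0.283 ± 0.176 CPM (-4.82 ± 0.35). A start of the overlapping gene Gm49395 lies at the same promoter, so those reads cannot be assigned to either alone. Itga11, the fibroblast collagen receptor chain, had an intronic peak with 7.85, 8.45 and 10.4 CPM in MEFs and 0.441, 0.355 and 0.373 CPM in mESCs (-4.55 ± 0.30), beside intronic peaks that were higher in mESCs, and its window was not called (0.17, adjusted p = 0.0682). The Itga11 window passed as higher with DESeq2's size factors in edgeR (adjusted p = 0.0252), with DESeq2 (adjusted p = 0.0351) and under the fixed depths (adjusted p = 0.00174 on BGI and 0.0279 on Illumina). The window of Itga2 held 1 peak, its promoter, with 17.4 ± 0.661 and 18 ± 0.867 CPM (-0.02 ± 0.12). Itga10 was higher as a window (0.59 ± 0.08), while its promoter was not called (-0.04).

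Itga9 spread 15 peaks over 294 kb, 8 lower and 4 higher by 2-fold or more. Its promoter fell from 23.5 ± 2.88 to 17.9 ± 1.15 CPM (-0.46 ± 0.12). An intronic peak 187 kb in held 0.692, 0.646 and 1.24 CPM in MEFs and 15.9, 18.3 and 15.4 CPM in mESCs (4.19 ± 0.24), and one 279 kb in held 12.2, 12 and 10.9 CPM in MEFs and 0.694, 0.0591 and 0.186 CPM in mESCs (-5.28 ± 0.37). The gene thus held sites of either direction. The related Itga4 had 2 peaks at its start. The lead promoter was not called on either platform (-0.22 and -0.30), but on Illumina it passed as lower without MEF library 2 (adjusted p = 0.0494) or 4 (adjusted p = 0.00807) or mESC library 3 (adjusted p = 0.0408). The other fell from 14.1 ± 0.413 to 7.92 ± 0.763 CPM (-0.90), and the Itga4 window was lower on BGI (-0.53) and not called on Illumina (-0.30, adjusted p = 0.0517).

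The leukocyte alpha chains had few peaks, 8 over 5 genes. Itgax held no peak in either set, and the deposited summit calls of single samples gave 0 summits there in 3 of the 4 groups, with a highest -log10 p of 2.55 in the Illumina mESC samples. Itgad had 1 peak, lower in mESCs (6.73 ± 1.32 and 3.5 ± 0.144 CPM). Itgam had 1 peak on BGI, in an exon it shares with the overlapping annotation Gm49368, with 0.369, 0.596 and 0.747 CPM in MEFs and 6.81, 9.52 and 7.58 CPM in mESCs (3.73 ± 0.31). Itgae had 4 peaks, of which 1, 2.35 kb upstream, fell from 7.59 ± 1.14 to 1.15 ± 0.521 CPM (-2.79). The Itgae window was not called on BGI (0.09, adjusted p = 0.292), but gave -0.76 without promoter peaks (adjusted p = 0.000898). On Illumina it was called higher in mESCs (0.31, adjusted p = 0.000548) and gave 0.35 without promoter peaks (adjusted p = 0.0510). Under the fixed depths it also passed as higher on BGI (0.24, adjusted p = 0.0242), so its direction depended on the platform and the peaks taken. Itgal had 2 peaks at internal starts, 1 not called (0.13) and 1 higher (1.18 and 7.71 CPM, log2 fold change 2.63). Of the 5 leukocyte marker windows on BGI, Cd68, Cd48 and Laptm5 were higher in mESCs (0.87, 1.87 and 1.60), Spi1 was not called (-0.05) and Ptprc was lower (-2.39), and Ptprc held no peak on Illumina.

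Of the 8 integrin beta windows, 6 were lower in mESCs on both platforms (Itgb1, Itgb2, Itgb3, Itgb5, Itgb6 and Itgb8). The other 2, Itgb4 and Itgb7, were higher on both. Under the fixed depths the call of Itgb8 was lost (adjusted p = 0.459 on BGI). Without promoter peaks the call of Itgb4 was lost (0.19, adjusted p = 0.0812 on BGI, and 0.17, adjusted p = 0.109 on Illumina). Of all windows, 40.4% were lower and 35.4% higher on BGI, and 40.7% and 35.1% on Illumina. Itgb1, the partner of most alpha chains, had the strongest lead promoter of the family in MEFs (in mESCs that of Lamc1 held more), with 55.7, 58.8 and 55.1 CPM in MEFs and 37.2, 41.1 and 32.7 CPM in mESCs. The groups did not overlap, and the log2 fold change was -0.68 ± 0.10 on BGI and -0.75 ± 0.08 on Illumina. Its intronic site, printed above, held 6.32, 6.11 and 3.73 CPM in MEFs and 0.189, 0 and 0.124 CPM in mESCs, which is 335 reads over the MEF samples and 5 over the mESC samples. The fitted log2 fold change was -5.70 ± 0.53 on BGI and -4.47 ± 0.47 on Illumina, and with so few mESC reads its size is not well fixed.

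Itgb5, the vitronectin receptor chain, had the most peaks, 20 on BGI, and a window that fell from 265, 261 and 250 CPM in MEFs to 153, 124 and 142 CPM in mESCs (-0.96 ± 0.07). The peaks at its outermost start were not called, the first with 14 ± 2.45 CPM in MEFs and 11.9 ± 1.26 CPM in mESCs (-0.30, adjusted p = 0.0781). From 43.7 kb to 112 kb into the gene, all 12 peaks were lower in mESCs. They include an internal promoter 62.2 kb in, at 29.5 ± 2.14 and 4.20 ± 1.14 CPM (-2.88 ± 0.17), the printed intronic site 59.5 kb in, at 23.1, 21.4 and 19.0 CPM in MEFs and 0.252, 0.710 and 1.37 CPM in mESCs (-4.82 ± 0.28), and a site 97.2 kb in, at 11.4 ± 0.227 and 0.553 ± 0.0184 CPM (-4.42 ± 0.25). Nearer the start the direction turned. The other printed site, 14.6 kb in, held 0.969, 1.24 and 0.797 CPM in MEFs and 19.9, 19.5 and 23.9 CPM in mESCs (4.32 ± 0.20), and an exonic peak beside it gave 4.01.

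Itgb3, which pairs with Itgav and with the platelet chain Itga2b, had a promoter at 23.4 ± 1.45 CPM in MEFs and 16.7 ± 0.694 CPM in mESCs (-0.55 ± 0.11). Its exonic site printed above held 18.3, 18.9 and 10 CPM in MEFs and 0.504, 0.414 and 0.248 CPM in mESCs (-5.39 ± 0.34), and an intronic site 20.1 kb in held 24.3 ± 2.78 and 1.36 ± 0.312 CPM (-4.21 ± 0.20). Further in, 40.8 kb from the start, the printed intronic site ran the other way, with 1.34, 0.944 and 0.747 CPM in MEFs and 12.9, 14.8 and 16.2 CPM in mESCs (3.77 ± 0.23). Itgb6 showed both directions too, with a site 22.4 kb in at 12.5 ± 1.85 and 0.592 ± 0.340 CPM (-4.45 ± 0.30) and another 28.9 kb in at 0.971 and 11 CPM (3.43).

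Itgb2, the leukocyte beta chain, had a lead promoter peak 0.944 kb inside the gene with 9.05, 8.60 and 6.92 CPM in MEFs and 0.441, 0.710 and 1.24 CPM in mESCs (-3.42 ± 0.31), the largest fall of the 30 lead promoters. Itgb8 had adjacent promoter peaks that moved apart. The peak on the start fell from 35.3 ± 0.711 to 16.6 ± 0.835 CPM (-1.16 ± 0.10), and the peak 0.484 kb downstream rose from 17.3 ± 1.21 to 30.7 ± 2.13 CPM (0.76 ± 0.11). Itgb4, the partner of Itga6 in hemidesmosomes, was higher at its promoter, with 7.16, 6.76 and 9.31 CPM in MEFs and 19.5, 19.0 and 17.3 CPM in mESCs (1.20 ± 0.15). Of the 10 Itgb4 window peaks, 4 were higher and 1 lower by 2-fold or more. The Itgb7 window was higher (1.24 ± 0.09), but its 3 peaks with 2-fold gains lay in introns of Zfp740 and in an exon of Rarg, inside the 5 kb flanks and not in Itgb7 itself.

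**Figure D3:**
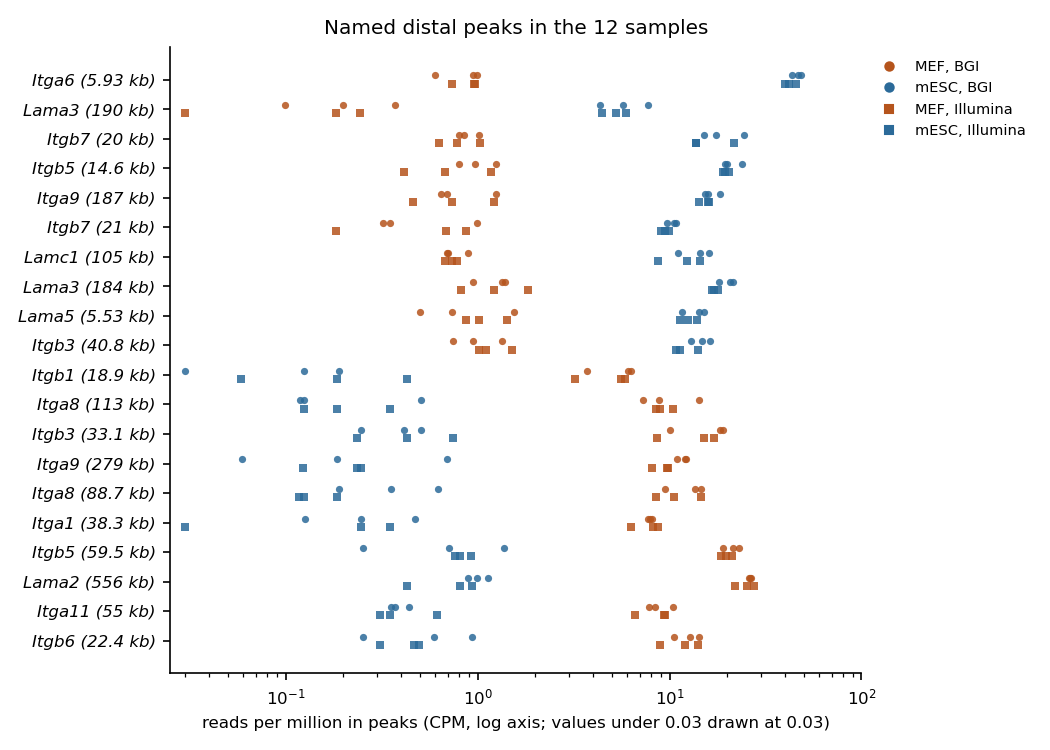
Each row is 1 of the 20 distal peaks named by the selection rule, labelled with its gene and its distance from the gene's outermost start, and each point is 1 of the 12 samples, placed by its CPM on a log axis (brown MEF, blue mESC, circles BGI, squares Illumina; all values over the BGI peak set). In all 20 rows the MEF and mESC samples do not overlap, as the rule required, and the Itga6 row spans 0.600 to 48.4 CPM on BGI.

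Among the laminin alpha chains, Lama1, Lama3 and Lama5 were higher in mESCs as windows (0.43, 0.99 and 0.73), Lama2 was lower (-2.18) and Lama4 was not called (0.10, adjusted p = 0.340), with the same directions on Illumina. The Lama4 window passed as higher under the fixed depths (adjusted p = 0.0370). The lead promoter of Lama1 was not called (0.11 on BGI and 0.14 on Illumina), though it passed as higher under the fixed depths (adjusted p = 0.0434 and 0.0161). Lama5, the alpha chain of the laminins on which stem cells are commonly grown, was higher at each of its 6 peaks that lie outside the Adrm1 promoter. The lead promoter held 11.3, 8.60 and 11.2 CPM in MEFs and 22.0, 22.5 and 20.6 CPM in mESCs (1.0 ± 0.14), and a site 1.88 kb upstream held 8.54, 7.80 and 8.26 CPM in MEFs and 42.9, 32.6 and 37.3 CPM in mESCs (2.13 ± 0.12). The printed intronic site, 5.53 kb in, held 0.739, 1.54 and 0.498 CPM in MEFs and 14.2, 11.6 and 15.2 CPM in mESCs (3.81 ± 0.29). Because the Adrm1 promoter holds more reads than any Lama5 site (64.5 and 59.5 CPM), the window as a whole understates these gains. Without any promoter peak, the window gave a log2 fold change of 2.54. That value also leaves out the own promoter peaks of Lama5, which gained less, so it is not the window without Adrm1 alone.

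Lama2, the chain of muscle and mesenchymal laminin, was lower. Its window fell from 66.3, 67.7 and 63.5 CPM in MEFs to 17.7, 13.4 and 14.7 CPM in mESCs (-2.18 ± 0.10), and 4 of its 6 peaks fell by 2-fold or more. The printed intronic site, 556 kb from the start in a gene of 640 kb, held 26.7, 26.2 and 26.1 CPM in MEFs and 1.13, 0.887 and 0.994 CPM in mESCs (-4.77 ± 0.18). The promoter peak moved little, from 8.45 ± 0.590 to 6.20 ± 1.20 CPM (-0.52 ± 0.19, adjusted p = 0.0183), a call that was lost without MEF library 1 or 2 or mESC library 3 or 5 (adjusted p of 0.0551 to 0.113) and under the fixed depths (adjusted p = 0.0721). On Illumina the adjusted p was 0.00465. Lama4, an endothelial and mesenchymal chain, had an intronic site at 7.45 ± 0.648 and 0.841 ± 0.146 CPM (-3.21 ± 0.27) and another, near its far end, at 1.26 ± 0.153 and 15.6 ± 1.08 CPM (3.55 ± 0.20). Its lead promoter was lower (-0.42, adjusted p = 0.0321 on BGI, and -0.61, adjusted p = 0.00393 on Illumina). On BGI that call was lost under the fixed depths (adjusted p = 0.160) and without MEF library 2 or 4 or mESC library 1 or 5 (adjusted p of 0.0540 to 0.164).

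The chains Lama3 and Lamb3 belong to the laminin of epithelial basement membranes, and in both a promoter was higher in mESCs. Apart from the lead promoters and the 20 named distal peaks, the single peaks described here and above, these included, were picked out after their values were seen. The Lamb3 promoter 94.3 kb inside the long annotation held 2.59, 3.33 and 3.63 CPM in MEFs and 11.7, 14 and 12.2 CPM in mESCs (1.92 ± 0.19). At Lama3 the outermost promoter was not called (10.4 ± 0.513 and 9.62 ± 0.368 CPM, log2 fold change -0.18), while the promoter of its internal start, 169 kb in, rose from 1.25 ± 0.239 to 10 ± 2.33 CPM (2.93 ± 0.26). Inside that shorter transcript, an intronic peak rose from 1.23 ± 0.244 to 20.1 ± 1.67 CPM (3.96 ± 0.20). The whole Lamb3 window was not called (-0.02), and it also held sites that fell. Without promoter peaks the Lamb3 window was lower in mESCs (-0.86, adjusted p = 0.000977 on BGI, and -0.62, adjusted p = 0.00915 on Illumina).

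Lamb1 and Lamc1, shared by most laminins, showed changes in both directions. The Lamb1 promoter rose from 11 ± 1.86 to 20.9 ± 3.26 CPM (0.86 ± 0.15), and an intronic site 6.43 kb in fell from 23.9 ± 3.2 to 5.50 ± 1.77 CPM (-2.19 ± 0.19). The Lamc1 lead promoter held 39.9, 37.3 and 36.5 CPM in MEFs and 46.3, 52.7 and 47.7 CPM in mESCs, a small gain (0.30 ± 0.09, adjusted p = 0.00661). On Illumina the Lamc1 lead promoter gave 0.25 (adjusted p = 0.0117), a call lost without MEF library 2 (adjusted p = 0.0737) or 4 (adjusted p = 0.0912) or mESC library 3 (0.13, adjusted p = 0.0864). Of 16 Lamc1 peaks, 5 were higher and 6 lower by 2-fold or more. The exonic site printed above, 105 kb in, held 0.692, 0.895 and 0.697 CPM in MEFs and 11.1, 14.4 and 16.1 CPM in mESCs (4.11 ± 0.24), and an intronic site 65.7 kb in held 14.3, 15.5 and 18.1 CPM in MEFs and 2.71, 0.887 and 1.12 CPM in mESCs (-3.41 ± 0.27). Summed over the Lamc1 window, 155 ± 5.32 CPM in MEFs stood against 147 ± 2.84 CPM in mESCs (-0.15, adjusted p = 0.0291), a call not made on Illumina (0.03, adjusted p = 0.620) and lost on BGI with DESeq2's size factors in edgeR (adjusted p = 0.116), with DESeq2 (adjusted p = 0.105) and under the fixed depths (adjusted p = 0.950). Under the fixed depths the Lamc1 window on Illumina passed in the other direction, as higher in mESCs (0.16, adjusted p = 0.0360). Lamb2 (-0.20) and Lamc3 (-0.53) were lower as windows, and the Lamb2 call was lost under the fixed depths (adjusted p = 0.536). The Lamb2 lead promoter was not called (-0.06 on BGI and 0.03 on Illumina). The Lamc3 lead promoter was lower (-0.55, adjusted p = 0.00195 on BGI, and -0.41, adjusted p = 0.0165 on Illumina). On Illumina the Lamc3 call was lost under the fixed depths (adjusted p = 0.0803) and without mESC library 3 (adjusted p = 0.0558). Without promoter peaks the Lamb2 window turned to higher in mESCs (2.02, adjusted p = 6.11e-06 on BGI, and 2.71, adjusted p = 6.13e-07 on Illumina). The largest log2 fold change of a single Lamb2 peak was the same (2.02 and 2.71), and only 1 Lamb2 peak on BGI and 2 on Illumina were called higher. The Lamc1 window without promoter peaks gave -0.24 on Illumina (adjusted p = 0.0110).

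**Figure D4:**
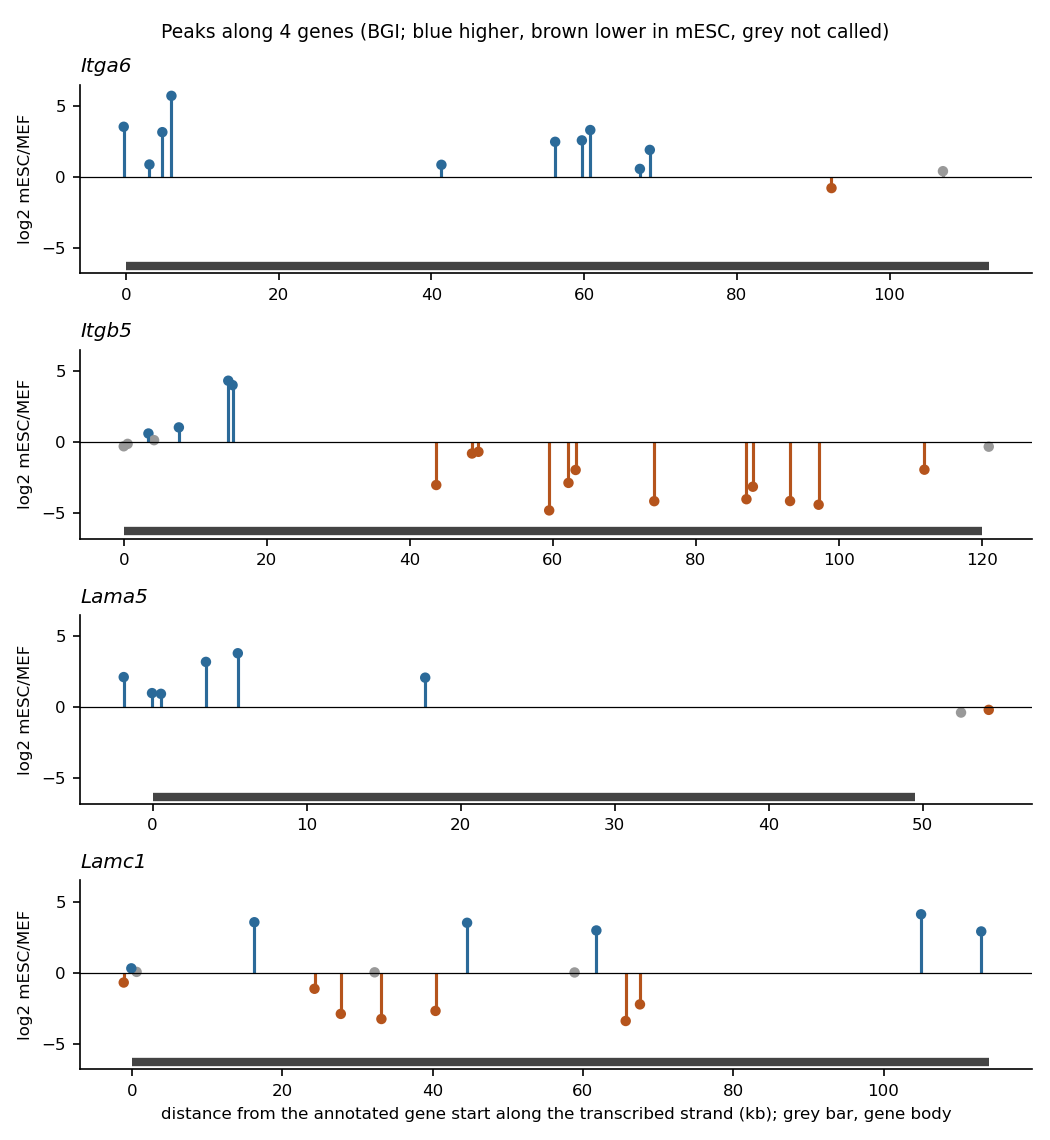
For Itga6, Itgb5, Lama5 and Lamc1, each stem is a peak placed by its distance from the gene's outermost annotated start in kb (x axis) with its log2 fold change of mESC over MEF on BGI (y axis), blue if called higher, brown if called lower and grey if not called; the dark bar is the gene body. Itga6 and Lama5 gain over most of their peaks, and Lamc1 holds gains and losses side by side. Itgb5 gains near the start, and all its called losses lie 43.7 kb or further in.

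Across the whole family, 17 genes held peaks with gains and peaks with losses of 2-fold or more on BGI, 9 held gains only, 8 losses only and 3 neither, and the same numbers were found on Illumina, though with different genes in part. Both directions thus stood in 47.2% of the 36 windows with a peak, beside 24.6% of all 17183 windows on BGI and 22.6% on Illumina, where the median window held 3 peaks, against 6 here on BGI and 5 on Illumina. Itga6 and Itgae held both directions on Illumina and not on BGI, and Itgb4 and Lamb1 on BGI and not on Illumina.

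The partners of integrins and laminins were read in the same way. Of 25 adaptors and kinases of the adhesion complex, 24 had a window that could be tested, and 5 were higher and 15 lower in mESCs on BGI, where 35.4% of all windows were higher and 40.4% lower. The largest falls were Tns1 (-1.47 ± 0.06), Parva (-1.24 ± 0.07) and Zyx (-1.08 ± 0.07). The gains were led by Parvb (1.24 ± 0.09) and the kinase Src (1.17 ± 0.06). On Illumina 5 were higher and 12 lower.

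Of 12 ligands and basement membrane genes, 4 were higher and 5 lower on BGI, and 2 and 6 on Illumina. The matrix glycoprotein Tnc fell from 75.1 ± 5.78 to 11 ± 1.48 CPM (-2.84 ± 0.10), and the basement membrane collagens Col4a2 (-1.84 ± 0.07) and Col4a1 (-1.50 ± 0.07) also fell. Spp1, osteopontin, a ligand of RGD-binding integrins, rose from 8.40 ± 2.02 to 81.0 ± 2.01 CPM (3.2 ± 0.12). The fibronectin gene Fn1, named after its values were seen, was not called on BGI (-0.12, adjusted p = 0.166) and was lower on Illumina (-0.20, adjusted p = 0.0155). Of 7 membrane proteins that bind laminin or associate with integrins, 3 were higher, among them the laminin receptor Bcam (1.66 ± 0.09) and the tetraspanin Cd9 (1.06 ± 0.07), and 2 lower, Cd151 (-0.50) and Cd47 (-0.47). Over all 44 partners, 12 of 43 tested windows were higher and 22 lower on BGI (10 and 20 on Illumina), beside 35.4% and 40.4% of all windows on BGI, with a median log2 fold change of -0.15 on BGI against -0.05 over all windows.

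The study set the platforms against each other, so the peaks of these genes were also compared between BGI and Illumina within each cell type, on the peak sets of MEFs (169 member peaks of 61891) and mESCs (172 of 67063). In the test that treats the samples as separate, 4 of 169 peaks in MEFs (2.37%) and 4 of 172 in mESCs (2.33%) were called, all lower on BGI, where 4.06% and 3.23% of all peaks were called. These counts changed with single libraries left out, to 0 in MEFs without library 1 or 2 and 16 without 4, and to 0 in mESCs without library 1 or 5 and 2 without 3. With all libraries, the called peaks were promoter peaks rich in GC. In MEFs they were at Lamc1 (-0.39 ± 0.06), Itgb5 (-0.62 ± 0.14), Itgav (-0.48 ± 0.08) and the Adrm1 start in the Lama5 window (-0.26 ± 0.05), and in mESCs at Lamc1 (-0.48 ± 0.11), 2 peaks of Itgb5 (-0.59 ± 0.12 and -0.52 ± 0.13) and Lama5 (-0.42 ± 0.10). Since each library was read on both platforms, the fit with the library as a replicate block compares the readings within a library, and it called 29 peaks higher and 22 lower on BGI in MEFs (30.2%, beside 29.2% of all peaks) and 7 higher and 22 lower in mESCs (16.9%, beside 21.3%).

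The size of the platform difference moved with GC content. Over the 20 MEF peaks of these genes with at least 65% GC the median log2 ratio of BGI over Illumina was -0.31, and over the 67 with less than 50% GC it was 0.13. In mESCs these medians were -0.24 over 20 peaks and 0.09 over 51. Spearman's rho across peaks between GC and the ratio was -0.51 in MEFs and -0.58 in mESCs, a description over peaks that share libraries and are not replicates. The differences were small beside those between the cell types: all ratios lay between -0.62 and 0.46.

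**Figure D5:**
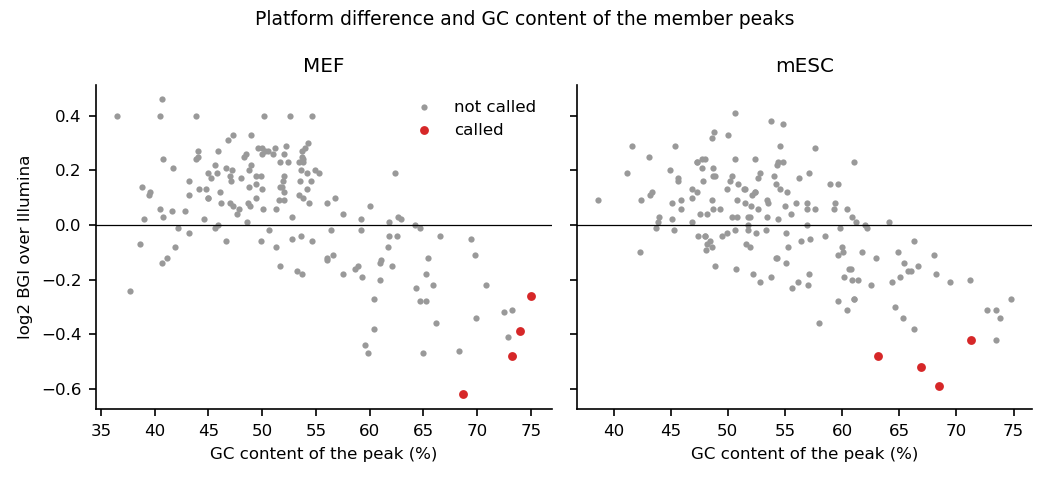
Each point is a peak of these genes, placed by its GC content in percent (x axis) and the log2 ratio of BGI over Illumina reads (y axis), for MEFs on the left and mESCs on the right, with red for the peaks called in the fit without a block. The 4 called peaks of each panel lie at the GC-rich end and below 0.

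Of the 233 BGI peaks, 213 had a counterpart in the Illumina set that covered 50% or more of the width. Among these, 175 were called in the same direction on both platforms, 0 in opposite directions, 2 on BGI alone, 1 on Illumina alone and 35 on neither. The same counts were not made over all peaks, and both platforms read the same libraries, so they describe no trait of these genes. The median absolute difference between the log2 fold changes was 0.13, and the largest was 1.23. In the deposited lists of reproducible peaks, which the authors made per cell type and platform, these windows held 161 peaks in MEFs on BGI and 153 on Illumina, and 161 and 159 in mESCs.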

How the data were processed

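Each of the 6 Omni-ATAC-seq libraries (3 of Thy1+ MEFs, numbered 1, 2 and 4, and 3 of Thy1-/Ssea1+/Epcam+ mESCs, numbered 1, 3 and 5) was read on both instruments. The authors trimmed reads with Cutadapt, aligned them to GRCm38 with Bowtie2, removed duplicates with Picard, dropped low-quality and mitochondrial reads, and sampled each library down to a fixed depth that differed between MEFs and mESCs (60 and 45 M reads), which levels depth within a cell type before counting. Peaks were called per sample with MACS2, widened around their summits and kept if reproducible within a group. The deposited count tables hold raw read counts per peak over 4 peak sets. The deposited summit files give a −log10 p and a fold enrichment ratio per summit, and the deposited reproducible lists give positions only. Summit values were used to describe Itgax and to check columns, not in tests.

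Counts were tested with edgeR 4.0.16 in R 4.3.3 (TMM, filterByExpr, quasi-likelihood F test, Benjamini-Hochberg over all peaks or windows, adjusted p under 0.05). DESeq2 1.42.0, which the authors used, was an alternative, as were other size factors, the fixed depths, filters on low counts, a 20 kb window and leaving out each library. SE is the absolute log2 fold change divided by the square root of F. CPM is reads per 1000000 reads in the peaks of that sample, without TMM. Depth was 15692254 to 21662775 reads in peaks per sample, each in the peak sets of its own platform or cell type. The tests were also run on simulated counts. Far fewer peaks were changed there than were called in these data, so that run does not speak to the error rates here. In the mESC against MEF tests, p-values measure the spread between 3 libraries per cell type. In the platform tests the same 3 libraries stand on both sides. Without a block those p-values treat the readings of a library as separate, and with the block they measure the spread left between readings within libraries.

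The members, gene lists and motifs were chosen with earlier results of these data known. By rule, the text names each gene's lead promoter (the peak within 1 kb of a protein-coding start with the most CPM), the 10 distal peaks in each direction with the largest log2 fold change on BGI (at most 2 per gene, at least 5 CPM in the higher cell type, no overlap between cell types on either platform, called alike in an Illumina peak overlapping by at least 50%), the windows that changed most, and up to 6 partners per direction.

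Columns without a platform suffix were taken as the Illumina samples. Across peaks, the ratio of BGI to Illumina counts and that of the summit scores gave Spearman's rho of 0.772 to 0.817 in all 6 libraries. The library number pairs the platforms, since both read the same library: deviations from the group means correlated at 0.618 to 0.837 (MEF) and 0.515 to 0.724 (mESC) within a library, and at -0.676 to 0.293 and -0.51 to -0.115 between libraries. Motifs and sequences were read from the GRCm38 genome with pysam 0.24.0, and no sequence from chromosome 18 is printed. The values of 1 gene are not reported here and it is not drawn by name, but its peaks are part of the counts.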

Additional observations from a re-analysis of the deposited data

Results flagged for a closer look

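Of 50 peaks examined (30 lead promoters and 20 distal peaks), 1 showed platform ratios of opposite direction in the cell types. At the lead promoter of Itgb2, the log2 ratio of BGI over Illumina CPM (with 0.5 CPM added to each) was 0.20 to 0.29 in the 3 MEF libraries, with a mean of 0.24, and -0.41 to -0.09 in the 3 mESC libraries, with a mean of -0.22. The difference of -0.46 was not tested. The mESC values there were low, 0.441 to 1.24 CPM on BGI. The lower accessibility of this peak in mESCs was called on both platforms (-3.42 on BGI and -2.83 on Illumina).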

How the results depend on the processing

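The counts of peaks called between mESCs and MEFs stayed within 1.5 times the reported ones under every alternative run except the 20 kb window, which takes in more peaks by construction and gave 136 higher on BGI and 143 on Illumina. Leaving out 1 library gave 185 to 192 called peaks on BGI and 183 to 190 on Illumina, and 27 to 30 and 26 to 30 windows. All 479 alternative values of the named distal peaks kept their direction and call, which the rule that picked them (large changes, no overlap, the same call on both platforms) largely fixed. One peak could not be tested where a mean count of 50 was required. Of the lead promoter values, 695 stayed on their side of the threshold, 18 lost the call and 7 gained one. No called value changed sign, but 33 values of lead promoters that were not called did, none beyond 0.13 in size. No paired analysis was possible for mESC against MEF because the cell types have separate libraries. The number 1 occurs in both, but the labels do not say that it pairs them.

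The counts of peaks called between platforms changed with the method. With the library as a replicate block, edgeR called 51 peaks in MEFs (29 higher and 22 lower on BGI) and 29 in mESCs (7 and 22), and DESeq2 called 16 (2 and 14) and 7 (all 7 lower). Without a block, DESeq2 called 14 in MEFs, all 14 lower, and RLE size factors in edgeR gave 7 and 1, all lower. Leaving out 1 library gave 0 to 16 in MEFs (0 without library 1 or 2, 16 without 4) and 0 to 2 in mESCs (0 without 1 or 5, 2 without 3). At an unadjusted p under 0.05, 23 MEF and 17 mESC peaks differed with all libraries. The cause was not tested. Peaks with few reads, such as the Itgb1 intron, are limited by counting error.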
